A study of Mus musculus with 13 samples.

Results

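The cytochrome P450 genes were taken as the protein-coding genes whose symbol is Cyp followed by a digit in GENCODE M21 (mouse genome mm10). Of 100 such genes, 77 had at least 1 peak of the deposited snATAC-seq peak list in the gene body or the 2 kb upstream of it, and these 77 are described here. The other 23 had no peak in that window, among them 10 of the 15 Cyp2c genes, Cyp11b1 and Cyp21a1. Over all protein-coding genes, 18268 of 21951 had a peak. The 77 genes held 273 peaks, of which 47 lay over a transcript start, 77 over an exon, 125 in an intron and 24 upstream.

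Cytochrome P450 enzymes are haem proteins that insert an oxygen atom into their substrate. Those of the endoplasmic reticulum take electrons from the reductase Por, and the mitochondrial ones take them through the ferredoxin Fdx1. In the kidney the proximal tubule is the main site of P450 enzymes: it activates vitamin D with Cyp27b1 and breaks it down with Cyp24a1, oxidises fatty acids such as arachidonic acid with members of the Cyp4a, Cyp2c and Cyp2j subfamilies, and clears drugs and toxins.

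The data were open chromatin profiles of single nuclei from whole mouse kidneys, with 2 samples at P0 (labelled as 1-day-old mice), 1 at P21 (labelled as 3 weeks old) and 2 at P56 (labelled as 8 weeks old). No treatment or engineered allele was given in the labels, and neither sex nor strain was given for these samples. The P21 and P56 samples together formed the adult group (n = 3), set against P0 (n = 2). The study's own annotation placed 27652 nuclei in 13 cell types and 664 outside them. The types were the convoluted (PCT) and straight (PST) segments of the proximal tubule, LOH (loop of Henle), CNT (connecting tubule), DCT (distal convoluted tubule), the principal (PC) and intercalated (IC) cells of the collecting duct, podocytes, nephron progenitors (NP), endothelial and immune cells, and the clusters stroma1 and stroma2. Gene activity is the number of open peak calls in a gene's window over the nuclei of a cell type in a sample, scaled to 1000000 open calls of those nuclei (CPM). It measures open chromatin, not RNA, and fewer fully open nuclei cannot be told apart from a lower chance of a call in every nucleus. Values over samples are given in the order P0 samples 1 and 2, P21, and P56 samples 1 and 2.

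The samples held 3361 to 7129 nuclei and 16980853 to 43794155 open calls. PCT nuclei numbered 547, 557, 1551, 2459 and 2298, and PST nuclei 83, 112, 266, 657 and 825. Of 27834 distinct barcodes, 477 occurred in more than 1 sample. By their means, the marker lists of PCT and of 10 other types were highest in their own type. By sample, this held in 4 of 5 for NP and in only 3 of 5 for CNT, PC and stroma2. The clusters stroma1 and stroma2 shared the same list of 6 markers, so it could not lead in both. By its mean it was highest in stroma2, with stroma1 second, and stroma1 led in 2 samples. PST had no marker list of its own, so its label was not checked in this way. Open calls in 12 of the 25 peaks of the Y chromosome were 2877, 3075, 1, 1339 and 1. In all 25 they were 5033, 7660, 1292, 2945 and 4897 (all nuclei). In the 1 Xist peak they were 0, 4, 88, 5 and 203. By the 12 peaks, both P0 samples and P56 sample 1 carried Y chromosome signal and the P21 sample and P56 sample 2 did not. Most adult samples thus differed from both P0 samples in this signal. Stage and sex therefore cannot be fully told apart in comparisons of P0 with adult samples. The labels do not say whether a sample pooled animals, and p-values measure the spread between these samples.

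To show the chromatin behind the main values, a stretch of each of 5 open peaks follows, the one nearest the centre of the peak that lies outside exons, read on the strand of its gene from mm10. The peak in an intron of Cyp4b1 (gene at chr4:115624725-115647723, minus strand) is shown from chr4:115643422-115643621. That over the start of Cyp2e1 (chr7:140763739-140774987, plus strand) is shown from chr7:140763539-140763738, directly before the gene. Upstream of Cyp4a14 (minus strand) the stretch is chr4:115497695-115497894, before Cyp2j5 (minus strand) it is chr4:96664155-96664354, and before Cyp24a1 (minus strand) it is chr2:170497276-170497475. G and C make up 69% of the bases of the Cyp24a1 stretch, 49.5% at Cyp2e1, 44% at Cyp4b1, 42.5% at Cyp4a14 and 41.5% at Cyp2j5.
Cyp4b1 intron: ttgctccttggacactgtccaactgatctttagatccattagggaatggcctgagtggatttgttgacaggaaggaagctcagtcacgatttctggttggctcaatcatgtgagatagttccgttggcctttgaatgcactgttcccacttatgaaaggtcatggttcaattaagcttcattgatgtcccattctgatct
Cyp2e1 start: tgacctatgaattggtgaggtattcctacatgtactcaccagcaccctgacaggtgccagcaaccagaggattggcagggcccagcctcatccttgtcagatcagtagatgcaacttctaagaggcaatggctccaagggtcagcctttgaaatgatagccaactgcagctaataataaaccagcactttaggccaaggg
Cyp4a14 upstream: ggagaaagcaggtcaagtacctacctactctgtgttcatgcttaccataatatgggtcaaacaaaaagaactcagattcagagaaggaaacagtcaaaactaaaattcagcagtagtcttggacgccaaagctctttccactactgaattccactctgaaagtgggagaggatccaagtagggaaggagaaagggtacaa
Cyp2j5 start: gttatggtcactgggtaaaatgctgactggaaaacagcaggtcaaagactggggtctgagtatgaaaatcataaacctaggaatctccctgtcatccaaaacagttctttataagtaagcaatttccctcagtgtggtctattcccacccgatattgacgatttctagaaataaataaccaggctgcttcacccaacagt
Cyp24a1 start: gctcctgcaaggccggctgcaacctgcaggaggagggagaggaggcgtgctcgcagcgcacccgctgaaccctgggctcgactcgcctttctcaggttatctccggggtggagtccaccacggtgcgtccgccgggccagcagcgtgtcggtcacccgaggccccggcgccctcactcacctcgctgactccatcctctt

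Across the 13 cell types, the P450 genes most often led in the proximal tubule when PCT and PST were counted together. Of the 42 members with a mean activity of at least 5 CPM, 11 had their highest activity in PCT or PST in all 5 samples, or 26.2%, against 5.96% of the 15929 protein-coding genes at that level. Cell types were defined on the same nuclei, so these shares are a description without a test. Counted as open peaks per nucleus with no scaling to the total, 28.6% of members and 16.1% of all genes led there, so the background share depends on the scaling. The 11 genes were Cyp51, which makes a precursor of cholesterol, the vitamin D hydroxylase Cyp24a1, the arachidonic acid epoxygenases Cyp2j5 and Cyp2c23, Cyp2f2, which acts on naphthalene, the fatty acid hydroxylases Cyp4a10, Cyp4a14 and Cyp4a31, and Cyp2d26, Cyp2d9 and Cyp2j13. The ethanol-oxidising Cyp2e1 also led in PCT in every sample but lay below that level on average.

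Some members led in 1 other type in all 5 samples. This rule is stricter than the one for the proximal tubule, where PCT and PST were counted together, so the numbers are not compared. By the stricter rule, Cyp24a1, Cyp2f2, Cyp2j13 and Cyp2e1 led in PCT. No share of all genes is given for the other types. Cyp11a1, the enzyme that begins steroid synthesis, led in podocytes with 68.3, 73.0, 98.6, 82.2 and 49.5 CPM, against 1.04 to 3.46 in PCT. Cyp20a1, a P450 without an established substrate, led in endothelial cells with 67.3, 82.8, 87.3, 101 and 102 CPM. Cyp2d22 led in stroma2 with 60.1, 58.6, 153, 117 and 155 CPM. In IC, the drug-metabolising Cyp3a13 was at 23.9, 36.7, 47.6, 47.1 and 49.8 and Cyp2t4 at 27.3, 21.6, 17.9, 31.4 and 25.7. Cyp4x1 led in IC as well, at 27.3, 21.6, 11.9, 22.97 and 14.9. The leukotriene hydroxylase Cyp4f18 led in immune cells with 39.3, 31.9, 23.0, 30.1 and 16.0.

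Other members were open in many types and led in none throughout. Cyp46a1, which hydroxylates cholesterol, was at 49.2, 53.8, 64.7, 29.6 and 55.01 CPM in PCT and had the highest mean over all types, 76.7. Cyp39a1, an oxysterol hydroxylase, averaged 60.3 over all types and Cyp2s1 38.4. Cyp4f13 was at 33.2, 35.3, 23.9, 37.3 and 27.9 in PCT and Cyp4f17 at 40.6, 47.5, 24.6, 32.6 and 27.8, with neither called there between stages (adjusted p = 0.819 and 0.0508). Cyp2u1, a fatty acid hydroxylase, was at 18.3, 20.6, 21.7, 22.4 and 20.5 in PCT. Cyp3a11 and Cyp2c55 were near 0 in most types, with Cyp3a11 at 12.3 and 6.38 in P0 PC nuclei and at most 4.32 elsewhere. Within the window, levels are in CPM and not per length. Divided by peak length and averaged over all 5 samples, although P0 and adult levels of these genes differ, PCT levels were 36.2 CPM per kb of peak for Cyp2d26, 27.2 for Cyp2j5, 27.0 for Cyp4b1 and 25.2 for Cyp2j11.

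**Figure D1:**
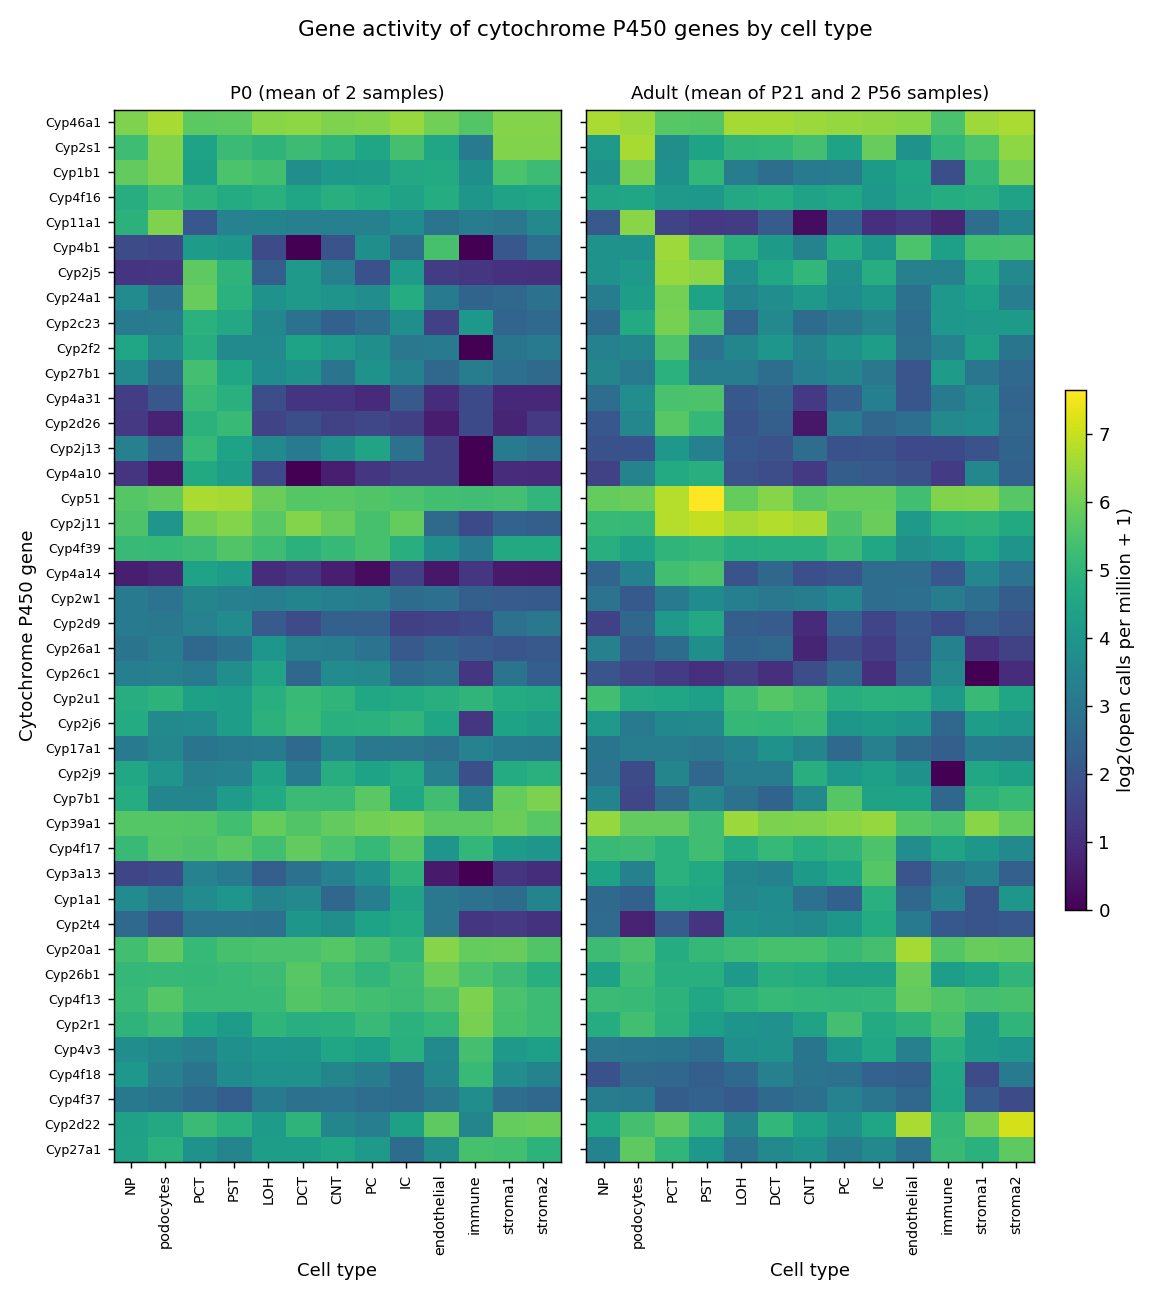
Gene activity (colour, log2 of CPM plus 1) of the 42 members with a mean of at least 5 CPM, by cell type, as the mean of the 2 P0 samples (left) and the 3 adult samples (right). The proximal tubule columns PCT and PST hold the highest levels of Cyp51, Cyp2j5, Cyp24a1 and the Cyp4a genes, whereas Cyp11a1 stands out in podocytes and Cyp20a1 in endothelial cells.

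In PCT, P450 genes were higher in the adult samples far more often than lower. By the quasi-likelihood test of edgeR on all 17071 genes (adjusted p under 0.05), 20 of 60 tested members rose from P0 to adult (33.3%), against 12.5% of all genes, and 2 fell (3.33%), against 14.7% of all genes. The median log2 difference (adult minus P0) was 0.30 for the members and 0.02 for all genes, and it is the same with the genes at 0 at P0 set at their bounds. Some members passed the filter on low counts only through the adult samples, so the count over tested members is a description. The other 17 members had too few calls to be tested.

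The fatty acid hydroxylases of the Cyp4 family held the rise with the lowest p, that of Cyp4b1, and one of the falls. Cyp4b1, which oxidises fatty acids and some plant and chemical toxins, was at 18.1, 17.6, 75.8, 91.0 and 109 CPM in PCT. The means were 17.9 ± 0.30 (SD, n = 2) at P0 and 91.8 ± 16.5 (SD, n = 3) in adult samples, and the groups did not overlap (log2 2.49 ± 0.20 SE, edgeR adjusted p = 0.000194). At least 1 of its 5 peaks was open in 12.98%, 10.4%, 36.2%, 34.1% and 59.1% of PCT nuclei. Cyp4a14 stood at 22.3, 18.5, 37.0, 38.6 and 40.8 and Cyp4f14 at 4.95, 2.09, 8.43, 16.5 and 14.8. Both rose, by 1.05 ± 0.16 SE (adjusted p = 0.00188) and 2.00 ± 0.45 SE (adjusted p = 0.0101) on the log2 scale. Of the other Cyp4a genes on chromosome 4, Cyp4a10 was at 25.7, 22.4, 24.2, 25.5 and 23.7 (log2 0.14 ± 0.16 SE, adjusted p = 0.555), and Cyp4a31 at 38.6, 32.6, 45.6, 42.1 and 40.1 (log2 0.37 ± 0.14 SE, adjusted p = 0.0731), and neither passed. Cyp4f16 was at 30.7, 28.4, 15.1, 17.9 and 15.1 and fell by 0.76 on the log2 scale (SE 0.18, adjusted p = 0.0140). Of the 17 tested Cyp4 members, 3 rose, 1 fell and 13 did not pass, which is near the 12.5% higher and 14.7% lower of all genes. With only the peaks within 1 kb of the start, Cyp4a14 (log2 0.55, adjusted p = 0.195) and Cyp4f16 (log2 -0.35, adjusted p = 0.428) did not pass.

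Among the drug and toxin metabolising groups, the group of the Cyp2a, Cyp2b, Cyp2e, Cyp2f, Cyp2g, Cyp2s and Cyp2t subfamilies had 3 of 8 tested members higher in adult PCT and the Cyp1 family 1 of 2, against 12.5% of all genes. Cyp2e1 was at 4.45, 4.19, 24.5, 27.4 and 22.4 CPM, with the 3 adult samples about level and far above both P0 samples (log2 2.64 ± 0.25 SE, adjusted p = 0.000344). Cyp3a13 was at 10.4, 8.37, 30.2, 26.7 and 27.9 (log2 1.70 ± 0.19 SE, adjusted p = 0.000677), again without overlap. Of the 6 Cyp3a and 6 Cyp2d members, 3 and 4 were tested and all of these were called higher. This is a description, since Cyp3a44, Cyp3a59 and Cyp2d12 passed the filter on low counts through the adult samples only. Cyp3a44 had no open call among 7386225 in P0 PCT nuclei and 169 in the adult samples, at least 11.2-fold higher against a floor of 3 calls over the group. Cyp3a59 went from 0 to 57 calls, at least 3.78-fold higher. Their start regions are near-identical to those of other Cyp3a genes (93.4% between Cyp3a44 and Cyp3a16, 95.7% between Cyp3a59 and Cyp3a25 over 250 bases before to 50 after the RefSeq start). The peak of Cyp3a59 lies within 1 kb of its start, so its calls could be split among copies. No peak of Cyp3a44 lies that close to its start, and the identity of its peaks to other genes was not measured.

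In the Cyp2d subfamily, Cyp2d26 was at 31.2, 26.9, 48.5, 47.8 and 51.9 (log2 0.89 ± 0.14 SE, adjusted p = 0.00251) and Cyp2d22 at 37.4, 34.7, 54.1, 52.0 and 54.4 (log2 0.69 ± 0.13 SE, adjusted p = 0.00527). Cyp2d9 and Cyp2d12 rose as well, Cyp2d12 from a mean of 0.82 to 6.54 CPM with the P21 sample at 1.75. Cyp2f2 was at 29.4, 23.3, 47.9, 45.9 and 42.9 (log2 0.90 ± 0.15 SE, adjusted p = 0.00288). In nuclei thinned to 1000 open peaks, Cyp2d26 (log2 0.38, adjusted p = 0.406) and Cyp2f2 (log2 0.92, adjusted p = 0.0653) did not pass, nor did Cyp2f2 with only the peaks within 1 kb of its start (adjusted p = 0.387). Cyp2a5 rose by 2.10 ± 0.45 SE (adjusted p = 0.00871) from a mean of 3.62 to 14.2, but its start is 97.7% identical to that of Cyp2a4. Cyp1a1, the target of the aryl hydrocarbon receptor, was at 14.1, 9.87, 21.6, 29.3 and 19.9 and rose by 1.09 ± 0.26 SE (adjusted p = 0.0140). Its relative Cyp1b1 was at 19.3, 19.4, 11.6, 18.2 and 9.66 and did not pass (adjusted p = 0.296).

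Of the Cyp2c and Cyp2j subfamilies, which include epoxygenases, 2 of 3 and 2 of 5 tested members rose in PCT, against 12.5% of all genes. Cyp2j5, an abundant kidney epoxygenase of the mouse, was at 55.4, 50.5, 94.2, 71.8 and 96.7 in PCT (log2 0.84 ± 0.15 SE, adjusted p = 0.00359). Cyp2j11 was at 66.8, 61.6, 85.9, 120.1 and 121 (log2 0.89 ± 0.18 SE, adjusted p = 0.00609), and Cyp2c23 at 31.7, 25.4, 44.6, 65.2 and 89.7 (log2 1.35 ± 0.29 SE, adjusted p = 0.00842). In these 3 genes both P0 samples were lowest. Cyp2c38 had 1 call at P0 and 79 in the adult samples, so it passed the filter on low counts through the adult samples only. The 2 of 3 for Cyp2c is therefore a description. Cyp2j6, Cyp2j9 and Cyp2j13 did not pass. Cyp2j13 is singled out because of its values: it was at 39.6, 27.2, 7.12, 29.0 and 11.5, and the adult samples low in it were those without Y chromosome signal, in PST as well (21.8, 19.1, 2.49, 16.0 and 9.58). The part of sex in this was not tested.

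**Figure D2:**
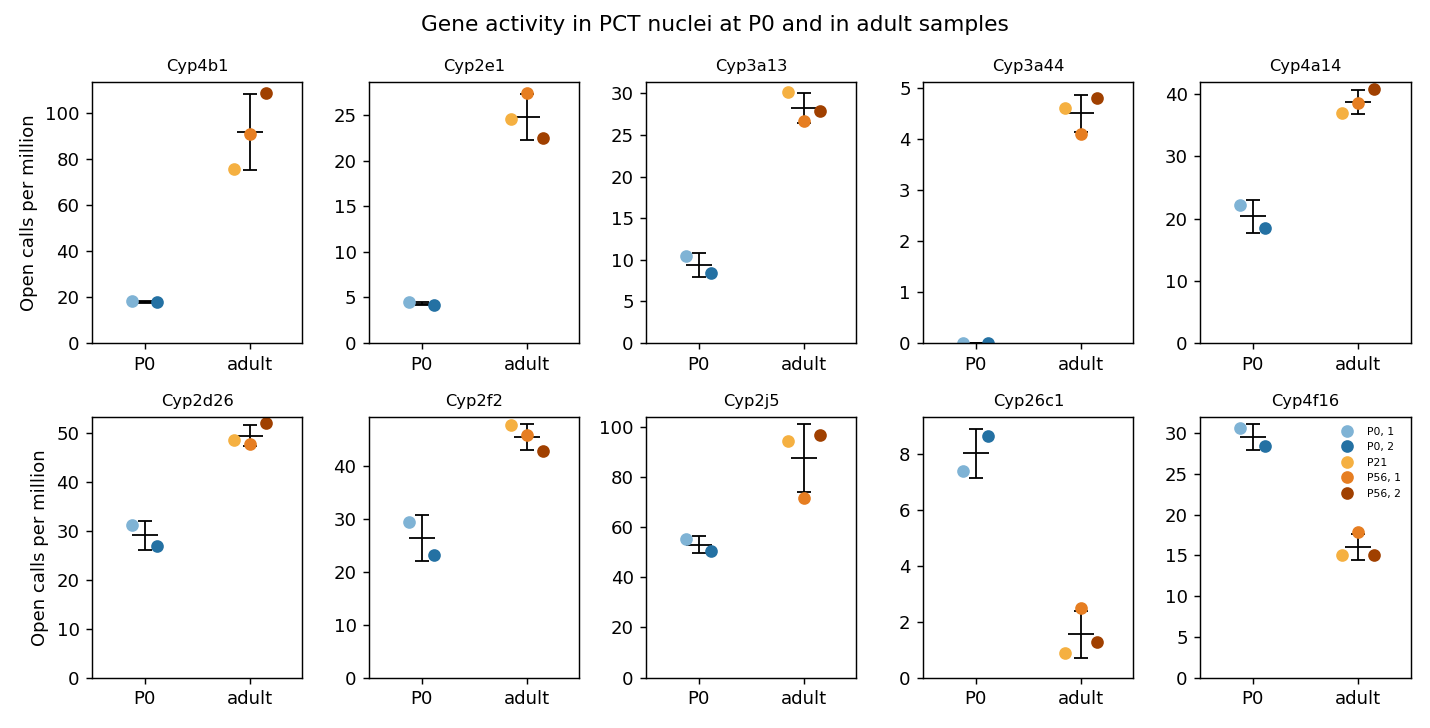
Gene activity in PCT nuclei (CPM) of 10 members, 1 point per sample, with the mean and SD of the 2 P0 and 3 adult samples. Both P0 samples of Cyp4b1 lie near 18 CPM and the adult samples between 75.8 and 109, and Cyp26c1 runs the other way.

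Of the 11 tested members that act on retinoic acid, steroids, sterols or bile acids, 1 was lower in adult PCT and none higher, against 14.7% and 12.5% of all genes. Of the 3 retinoic acid hydroxylases, Cyp26c1 was at 7.42, 8.67, 0.88, 2.51 and 1.27 in PCT and fell by 2.23 on the log2 scale (SE 0.44, adjusted p = 0.00557), with no overlap. Cyp26b1 was at 33.2, 33.2, 27.4, 27.9 and 25.3 and Cyp26a1 at 4.70, 5.08, 5.15, 5.39 and 5.96, and neither passed (adjusted p = 0.367 and 0.497). None of the 3 tested steroid synthesis genes and none of the 5 tested sterol and bile acid genes passed edgeR's test in PCT. Cyp17a1, a steroid hydroxylase, was at 7.92, 5.38, 9.20, 7.53 and 8.79. Cyp51 was at 101, 102, 119, 91.9 and 117 in PCT (log2 0.23 ± 0.12 SE, adjusted p = 0.202).

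Leaving out P0 sample 1 or 2 left 7 or 6 called members in PCT in place of 22. The P0 group then holds 1 sample, which is assumed to vary like the adult samples.

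In PST, fewer members passed and most were shared with PCT. Of 44 tested members, 7 rose (15.9%, against 5.43% of all 15450 genes tested) and 3 fell (6.82%, against 7.71%). As in PCT, some members passed the filter on low counts through 1 group only. Cyp4f14 did so through the adult samples, with means of 2.62 CPM at P0 and 19.4 in adult samples. These counts are therefore a description. The median log2 difference was 0.00 for the members and 0.03 for all genes. Of the 7 that rose, 6 were also called in PCT: Cyp4b1, Cyp2j5, Cyp2j11, Cyp3a13, Cyp4f14 and Cyp4a14. The seventh was Cyp51, the demethylase of the cholesterol pathway, at 94.5, 99.6, 184, 184 and 228 CPM in PST. Its 3 adult samples were near or above 184 and the P0 samples below 100, and it rose by 1.12 ± 0.16 SE on the log2 scale (adjusted p = 0.00184). With only the peaks within 1 kb of its start the difference was 0.27 (adjusted p = 0.508). Cyp4b1 was at 16.955, 14.1, 49.1, 58.4 and 39.4 in PST (log2 1.73 ± 0.29 SE, adjusted p = 0.00341) and Cyp2j5 at 27.9, 32.2, 103, 62.6 and 68.3 (log2 1.40 ± 0.25 SE, adjusted p = 0.00418).

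The 3 genes that fell in PST were Cyp26c1, Cyp11a1 and Cyp4f18. All of them passed the filter on low counts through the P0 samples only, so their falls are a description. Cyp26c1 was at 12.1, 13.1, 1.24, 1.05 and 0.95 and fell by 3.50 on the log2 scale (SE 0.53, adjusted p = 0.00212). Cyp11a1 was at 9.69, 9.06, 0.62, 1.31 and 2.32 (log2 -2.31 ± 0.58 SE, adjusted p = 0.0207). Cyp4f18 was at 12.1, 12.1, 3.73, 4.97 and 3.27 (log2 -1.53 ± 0.44 SE, adjusted p = 0.0376), a call kept in 6 of 11 alternatives. In each, all adult samples lay below both P0 samples, and the P0 values rest on 83 and 112 nuclei. The summed level of the 12 proximal tubule markers also rose, from 957 and 965 at P0 to between 1142 and 1447 in adult PCT, and from 549 to 591 at P0 to between 753 and 966 in adult PST, and its part in these results was not tested. Without P0 sample 1 or without P0 sample 2, edgeR called no member in PST, with 14 and 16 at an unadjusted p under 0.05 (DESeq2 was not run on these subsets, and called 9 of the 44 members with all samples). The P0 group then holds 1 sample there too.

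The stage difference itself differed between the segments for 2 of 54 tested members (3.31% of all 16795 genes tested). Cyp51 changed more in PST, by 0.94 ± 0.17 SE on the log2 scale (edgeR adjusted p = 0.00711), being highest in PCT at P0 and in PST in adult samples. Cyp2f2 changed by 1.69 less in PST than in PCT (log2 -1.69 ± 0.35 SE, adjusted p = 0.0172): in PST it stood at 12.1, 11.1, 6.84, 7.33 and 5.16 CPM, below P0 in all 3 adult samples but not past the test (adjusted p = 0.224). Both calls were lost when either P0 sample was left out, and that of Cyp2f2 was lost with DESeq2 (adjusted p = 0.0510).

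**Figure D3:**
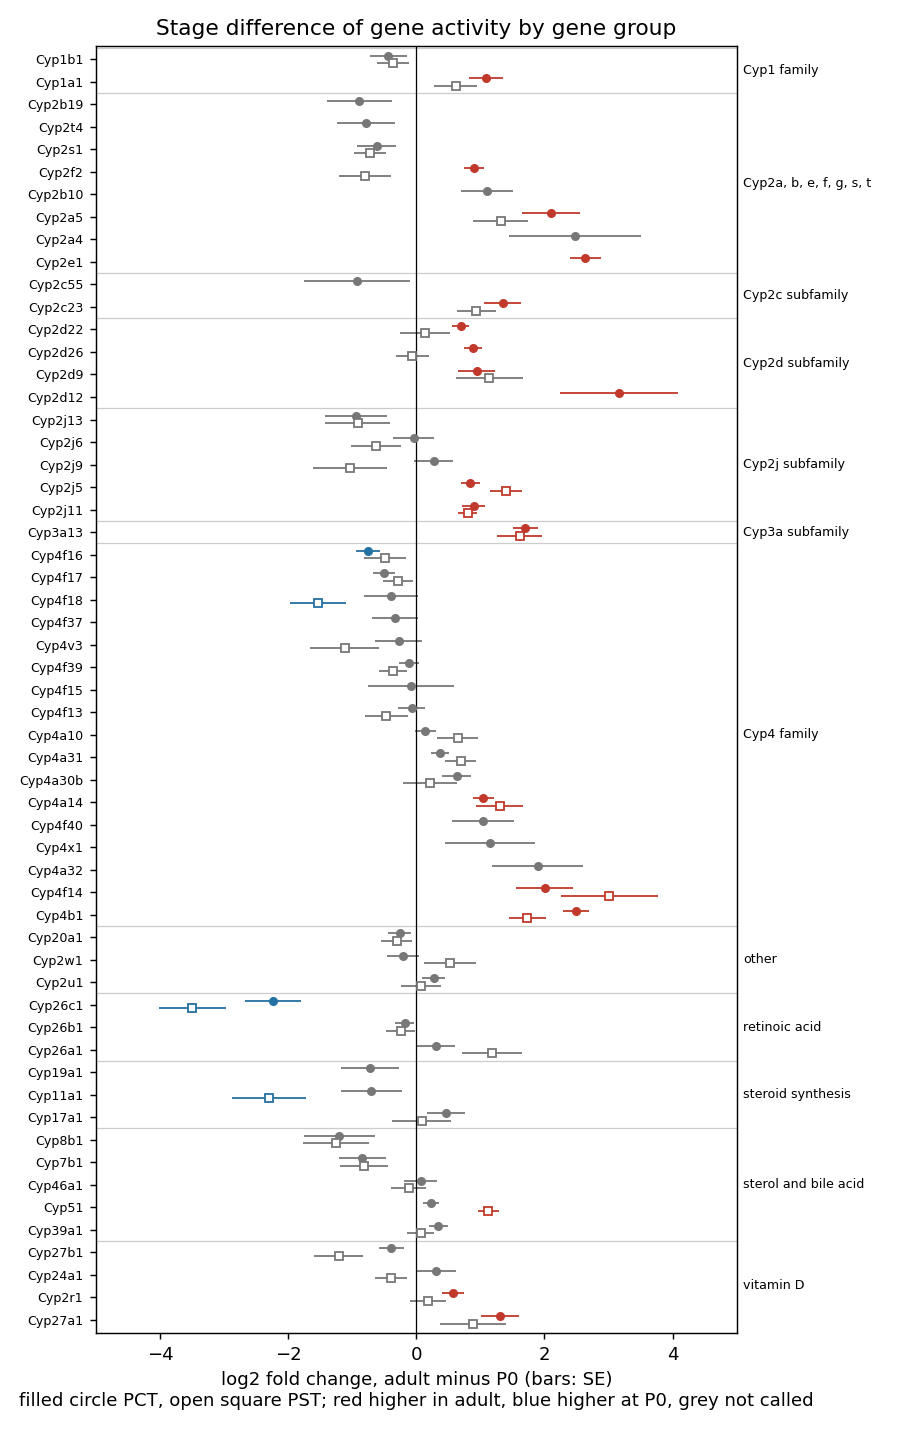
Log2 fold change of gene activity (adult minus P0, bars show the SE) for members in their functional groups, in PCT (filled circles) and PST (open squares), for members above 0.5 CPM in both groups of PCT. Red marks genes called higher in adult, blue higher at P0 and grey neither, and Cyp3a13 and the Cyp2d genes in PCT lie to the right of 0 while Cyp26c1 lies farthest to the left.

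The test was repeated on single peaks. In PCT, 53 of 156 tested member peaks were higher in adult (34%, against 16.3% of all 115761 peaks tested) and 13 were higher at P0 (8.33%, against 17.6%). As with genes, some peaks passed the filter on low counts only through the adult samples, such as a Cyp3a44 peak at 0 in both P0 samples. The peak counts are therefore a description. The 53 peaks belonged to 31 genes and included 18 of 54 tested intronic peaks, 14 of 41 over a transcript start, 12 of 43 over exons and 9 of 18 upstream. In PST, 10 of 61 tested member peaks were higher in adult, against 8.83% of all peaks, and 4 were higher at P0, against 7.1%.

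The peaks whose bases are printed above differed in how much they moved in PCT. The Cyp2e1 start peak was at 4.45, 3.89, 21.7, 25.2 and 20.8 CPM (log2 2.61 ± 0.26 SE, adjusted p = 3.39e-05). That upstream of Cyp4a14 was at 9.40, 9.27, 24.1, 23.8 and 24.7 (log2 1.57 ± 0.23 SE, adjusted p = 0.000303), whereas the peak over its start was at 10.6, 8.07, 11.9, 13.5 and 13.8 and did not pass (adjusted p = 0.0532). The rise at Cyp4a14 was thus called upstream, although the difference between its peaks was not tested.
The intronic Cyp4b1 peak was at 15.6, 16.1, 31.0, 33.6 and 44.7 (log2 1.40 ± 0.25 SE, adjusted p = 0.00112). The Cyp2j5 start peak was at 30.7, 33.2, 53.9, 43.1 and 54.9 (log2 0.86 ± 0.23 SE, adjusted p = 0.0101). At the Cyp24a1 start the samples overlapped, at 31.7, 43.3, 43.9, 26.6 and 49.0 (adjusted p = 0.453).

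Of the 7 peaks of Cyp51, 3 are described, and no rule set beforehand picked them. In PST, an intronic peak at chr5:4094629-4095210 was at 2.41, 0, 9.02, 20.9 and 47.8 CPM (log2 4.79 ± 0.80 SE, adjusted p = 0.00258), and an exonic peak at chr5:4080832-4081655 at 13.3, 12.5, 29.7, 23.0 and 56.2 (log2 1.67 ± 0.27 SE, adjusted p = 0.00209). The intronic one passed the filter on low counts through the adult samples only. The window of another gene shares the exonic one. The peak over the Cyp51 start was at 30.1, 34.8, 25.9, 23.7 and 46.7 and did not pass (adjusted p = 0.645). The difference between these peaks was not tested.

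The central 300 bases of each member peak were searched on both strands for the cores of 3 factors of the proximal tubule or of P450 control. These were an HNF4 core (CAAAGTCCA), an AHR core (TNGCGTG) and an ERR core (TCAAGGTCA). At least 1 core was found in 12 of 273 member peaks (4.40%), against 4.72% of 300693 peaks in all. By core, the shares were 0.733% of member peaks and 0.802% of all peaks for HNF4, 2.93% and 3.11% for AHR, and 0.733% and 0.854% for ERR. A match is only a description of the letters. None of the 5 stretches printed above holds one of them.

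Peaks that were highest in PCT or PST and hold a match outside exons are shown next with the match in capitals, in the strand of the gene. A Cyp1b1 peak (chr17:79710329-79710747), whose AHR core lies in an exon, is not printed. It was at 6.06, 10.1, 6.84, 9.95 and 6.11 CPM in PST. The HNF4 core of Cyp2d9 is intronic in GENCODE (chr15:82443781-82443900). In Cyp1a1 the peak holds 3 AHR cores, of which the closest to the RefSeq start, at -826 from it, is printed (chr9:57696732-57696849), and that of Cyp3a13 is intronic (chr5:137912588-137912705).
Cyp2d9 HNF4: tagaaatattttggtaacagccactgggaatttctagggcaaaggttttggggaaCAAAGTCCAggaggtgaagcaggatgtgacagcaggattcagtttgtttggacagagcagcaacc
Cyp1a1 AHR: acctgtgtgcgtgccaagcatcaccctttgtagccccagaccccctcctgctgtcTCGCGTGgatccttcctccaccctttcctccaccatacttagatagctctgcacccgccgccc
Cyp3a13 AHR: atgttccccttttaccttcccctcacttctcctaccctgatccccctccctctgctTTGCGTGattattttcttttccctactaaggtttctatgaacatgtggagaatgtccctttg

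Of the matched peaks shown, those of Cyp3a13 and Cyp2d9 were called higher in adult PCT. The Cyp2d9 peak was at 0, 0.598, 1.75, 1.301 and 1.33 CPM (log2 2.53 ± 0.85 SE, adjusted p = 0.0342), all low values. The Cyp3a13 peak was at 1.24, 1.20, 2.96, 4.83 and 3.70 (log2 1.83 ± 0.47 SE, adjusted p = 0.00956). The Cyp1a1 peak with 3 cores was at 9.90, 8.37, 7.56, 12.8 and 8.85 and was not called (adjusted p = 0.490).

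Between the segments of the adult proximal tubule, vitamin D genes lay on the side of PCT. The question was which members distinguish PCT from PST nuclei of the same sample. Since the segments were defined on these nuclei, the edgeR values only rank the genes. Of 59 tested members 19 were higher in PCT (32.2%, against 13.4% of all 16726 genes tested) and 11 higher in PST (18.6%, against 17.2%). Without the sample as a block 16 of the 59 were called in place of 30.

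All 4 vitamin D genes were higher in PCT. Cyp24a1, which inactivates the hormone, was at 46.0, 68.5, 73.5, 35.7 and 85.1 CPM in PCT and at 32.7, 24.1, 22.4, 20.4 and 19.0 in PST, so PCT was above PST in every sample (adult log2 PST minus PCT -1.63 ± 0.20 SE, adjusted p = 5.48e-05). Cyp27b1, which makes the active hormone, was at 44.3, 36.5, 29.8, 33.6 and 22.2 in PCT and 25.4, 18.1, 5.595, 12.04 and 7.79 in PST (log2 -1.62 ± 0.17 SE, adjusted p = 1.76e-05). Cyp27a1, a mitochondrial sterol hydroxylase, was at 14.1, 14.1, 21.7, 31.8 and 41.3 in PCT and 13.3, 7.04, 6.84, 18.1 and 23.1 in PST (log2 -0.92 ± 0.15 SE, adjusted p = 0.00045). For Cyp2r1, which hydroxylates vitamin D, the values were 21.5, 21.2, 27.9, 32.1 and 27.7 in PCT and 20.6, 15.1, 18.0, 19.4 and 19.2 in PST (log2 -0.60 ± 0.13 SE, adjusted p = 0.00317).

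With age, Cyp27a1 (log2 1.31 ± 0.29 SE, adjusted p = 0.00997) and Cyp2r1 (log2 0.57 ± 0.17 SE, adjusted p = 0.0296) rose in PCT. The call of Cyp2r1 was kept in 9 of 15 alternatives, which gave log2 0.41 to 0.72. Neither Cyp24a1 (log2 0.31 ± 0.31 SE, adjusted p = 0.493) nor Cyp27b1 (log2 -0.39 ± 0.20 SE, adjusted p = 0.166) passed. In PST Cyp27b1 was below P0 in all adult samples at log2 -1.21 ± 0.38 SE (adjusted p = 0.0548). The receptor gene Vdr, by contrast, rose in both segments, by 0.71 ± 0.12 SE (adjusted p = 0.0026) in PCT and 0.62 ± 0.13 SE (adjusted p = 0.0107) in PST.

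**Figure D4:**
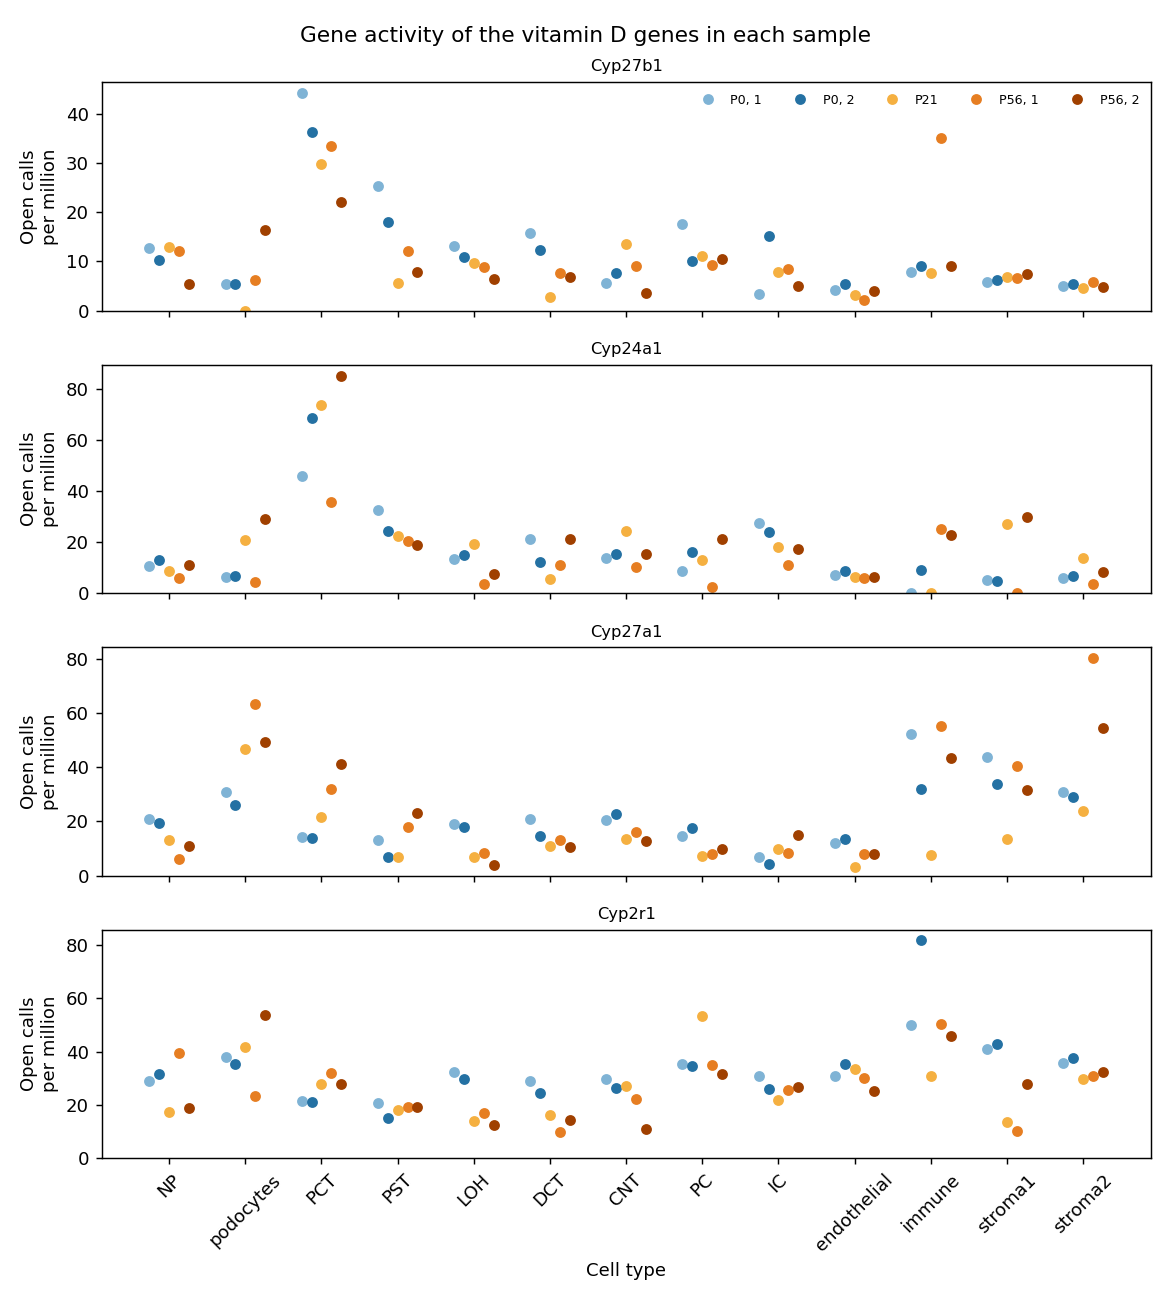
Gene activity (CPM) of the 4 vitamin D genes in the 13 cell types, 1 point per sample. Cyp24a1 is highest in PCT in all 5 samples, at 35.7 to 85.1 CPM, and Cyp27b1 in 4 of 5, while Cyp27a1 and Cyp2r1 are spread over many types.

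The lowest p on the side of PCT was that of Cyp2f2, with adult means of 45.6 ± 2.49 (SD, n = 3) in PCT and 6.44 ± 1.14 (SD, n = 3) in PST (log2 -2.85 ± 0.15 SE, adjusted p = 1e-07). Cyp2e1 averaged 24.8 and 3.11 (log2 -3.28 ± 0.28 SE, adjusted p = 3.21e-06), and Cyp4a32 11.2 and 2.01 (log2 -2.57 ± 0.29 SE). In these 3 genes PCT was higher in all 3 adult samples and in both P0 samples. Of the genes higher in PST, Cyp1b1 averaged 13.2 in PCT and 32.1 in PST (log2 1.35 ± 0.14 SE, adjusted p = 1.51e-05) and was higher in PST in all 5 samples. Cyp51 averaged 109.6 and 199 (log2 0.89 ± 0.10 SE, adjusted p = 3.03e-05) and was higher in PST in the 3 adult samples and in neither P0 sample, but with only the peaks within 1 kb of the start the difference was 0.07 (adjusted p = 0.615). Cyp2s1 was at 18.0, 24.6 and 19.0 in adult PST against 11.9, 16.0 and 9.89 in PCT, and Cyp26a1 at 10.6, 17.5 and 10.6 against 5.15, 5.39 and 5.96. Cyp2d11 was near 0 in PCT and averaged 3.07 in PST. Cyp2a4 is singled out for its values in PST, 2.42, 0, 4.35, 5.50 and 38.7, where P56 sample 2 alone was high, and it did not pass without the sample as a block (adjusted p = 0.106). The starts of Cyp2a4 and Cyp2a5 are near-identical, as given above.

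**Figure D5:**
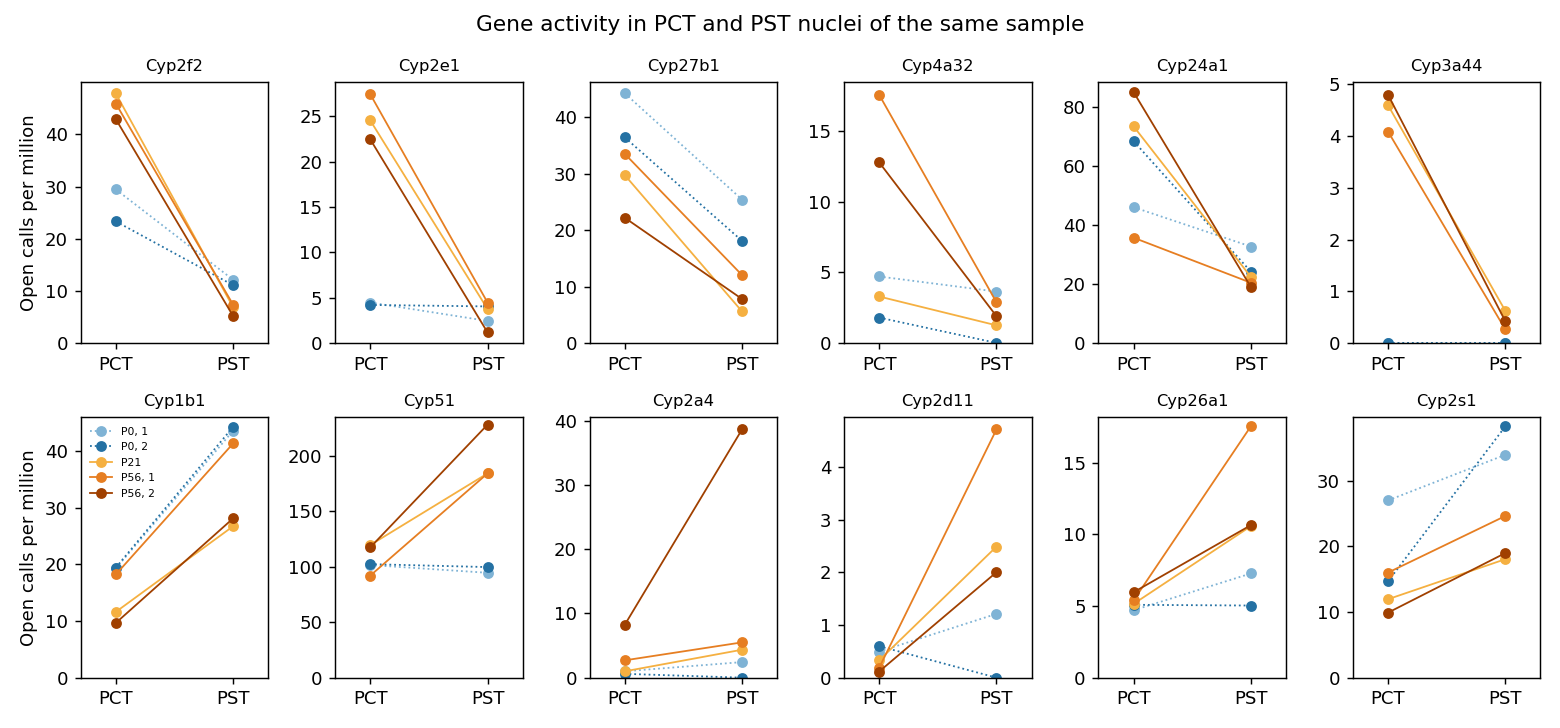
Gene activity (CPM) in PCT and PST of the same sample, for the 6 members ranked highest in each direction, with P0 samples dotted and adult samples as full lines. Lines of Cyp2f2 and Cyp27b1 fall from PCT to PST in all 5 samples, and lines of Cyp51 rise in the 3 adult samples only.

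Partner genes of the P450 enzymes were also examined, as a list of 18 that are not themselves P450 genes. In PCT, 10 of the 18 rose (12.5% of all genes did) and 1 fell (14.7% of all genes). In PST 6 of 17 tested rose and none fell by edgeR's test, against 5.43% and 7.71% of all genes. The reductase gene Por was at 199, 209, 296, 269 and 362 CPM in PCT (log2 0.72 ± 0.14 SE, adjusted p = 0.00508), and Alas1, which begins haem synthesis, at 69.3, 63.1, 181, 153 and 225 (log2 1.61 ± 0.17 SE, adjusted p = 0.000477). In both, the adult samples lay above P0, in PST as well. Of the regulators Hnf4a, Ppara, Rxra and Vdr rose in PCT, Nr1i3 fell, and Ahr, Arnt and Nr1i2 did not pass. Between the adult segments 6 of the 18 were higher in PCT, against 13.4% of all genes, among them Ppara and Rxra, and Ahr alone was higher in PST (log2 0.45 ± 0.15 SE, adjusted p = 0.0404).

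In LOH, more members were higher at P0 than in adult samples. Of 50 tested members 9 were higher in adult (18%, against 22.7% of all 16855 genes) and 20 higher at P0 (40%, against 28.4%). Some members passed the filter on low counts through 1 group only, so these counts are a description. The median log2 difference was -0.19 for the members and -0.02 for all genes. All 3 retinoic acid hydroxylases fell. Cyp26c1 was at 20.8, 21.6, 2.56, 1.06 and 1.60 (log2 -3.67 ± 0.35 SE, adjusted p = 3.51e-05), Cyp26a1 at 16.5, 13.9, 5.12, 5.28 and 3.19 (log2 -1.78 ± 0.32 SE, adjusted p = 0.00105), and Cyp26b1 at 37.8, 35.1, 13.4, 19.7 and 16.2 (log2 -1.09 ± 0.21 SE, adjusted p = 0.00143). In each the adult samples lay below both P0 samples.

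Of the 4 tested steroid synthesis genes, Cyp11a1, Cyp19a1 (aromatase) and Cyp11b2 (aldosterone synthase) were called lower there, against 28.4% of all genes, and Cyp17a1 was not called. Cyp19a1 averaged 4.51 CPM at P0 and 0.58 in adult samples, and Cyp11b2 4.09 and 0.42. Cyp11a1 averaged 9.80 and 1.52. All of these called genes passed the filter on low counts through P0 only, so the count is a description. Cyp1b1 was at 39.2, 39.1, 10.9, 7.40 and 6.62 (log2 -2.29 ± 0.23 SE, adjusted p = 4.74e-05) and Cyp27a1 at 19.1, 17.9, 7.04, 8.45 and 4.11 (log2 -1.54 ± 0.32 SE, adjusted p = 0.00233), with no overlap in either. Against this trend, Cyp4b1 was at 1.89, 2.98, 21.1, 34.9 and 31.9 (log2 3.62 ± 0.34 SE, adjusted p = 3.61e-05), and Cyp2j11 at 50.0, 52.0, 101, 103 and 89.0 (log2 0.96 ± 0.15 SE, adjusted p = 0.000385). Cyp1a2, a liver enzyme of drug metabolism, was at 0.47, 1.39, 5.12, 9.86 and 17.1 (log2 3.59 ± 0.60 SE, adjusted p = 0.000664). Cyp2j8 had no call at P0 and 36 in adult LOH nuclei, at least 12.7-fold higher. Cyp39a1 was at 52.9, 59.7, 92.1, 97.6 and 80.1 (log2 0.70 ± 0.15 SE, adjusted p = 0.00333). The summed proximal tubule markers in LOH were at 218, 198, 261, 84.9 and 120, which overlapped between the groups.

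In the other types, the share of members called was above that of all genes in stroma1 (43.5%). It was level with it in stroma2, close to it in DCT and endothelial cells, and lower in NP, podocytes, CNT and PC. In IC and immune cells few genes of any kind were called. With so few members tested in each type, these shares are a description. Members could also pass the filter on low counts through 1 group only. In stroma1, the called Cyp4b1, Cyp2j5, Cyp2j11, Cyp24a1 and Cyp2c23 passed it through the adult samples only. Counts in either direction were 4 of 13 in NP (38.9% of all genes tested there), 1 of 17 in podocytes (12.1%), 1 of 16 in DCT (6.5%), 5 of 28 in CNT (25.5%), 9 of 40 in PC (30%), 8 of 36 in endothelial cells (24.5%), 10 of 23 in stroma1 (28.4%) and 12 of 34 in stroma2 (35.3%). None of 25 was called in IC (1.72%) and none of 7 in immune cells (0.0343%) by edgeR, with 1 in each at an unadjusted p under 0.05, and none by DESeq2.

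The oxysterol hydroxylase gene Cyp7b1 was lower in adult samples of LOH, DCT, CNT, endothelial cells and both stromal clusters. In DCT it was at 36.9, 34.4, 2.70, 8.81 and 1.91 CPM (log2 -3.22 ± 0.67 SE, adjusted p = 0.0081), and in stroma2 at 72.6, 65.2, 28.5, 38.8 and 34.5 (log2 -1.05 ± 0.16 SE, adjusted p = 0.000271). No adult sample reached a P0 sample in either. In DCT it passed the filter on low counts through P0 only, with 14 open calls in each P0 sample, from 51 and 57 nuclei. In NP, Cyp1b1 was at 55.1, 53.9, 12.97, 15.2 and 13.6 (log2 -2.10 ± 0.32 SE, adjusted p = 2.04e-07), but the adult values rest on 52, 90 and 53 nuclei. There Cyp1b1 also passed the filter on low counts through P0 only. In stroma2 Cyp1b1 moved the other way, at 37.4, 35.4, 78.5, 60.6 and 65.6 (log2 0.80 ± 0.15 SE, adjusted p = 0.00108), and Cyp2d22 rose from 60.1 and 58.6 to 153, 117 and 155 (log2 1.16 ± 0.14 SE, adjusted p = 4.12e-05). In podocytes Cyp27a1 alone was called, at 31.0, 26.2, 46.7, 63.2 and 49.5 (log2 1.01 ± 0.27 SE, adjusted p = 0.0109). The summed proximal tubule markers in podocytes were 219 and 185 at P0 and 379, 291 and 478 in adult samples, and their part in this was not tested.

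Cyp4b1 and some of the members that led in PCT or PST were also called higher in adult samples of other cell types. In stroma1, Cyp4b1 was at 3.66, 2.80, 47.6, 30.3 and 39.1, Cyp2j5 at 1.05, 1.24, 34.0, 10.1 and 29.8, and Cyp24a1 at 5.23, 4.66, 27.2, 0 and 29.8. In PC, Cyp2j5 was at 3.36, 2.25, 18.4, 4.66 and 16.9 and Cyp2d26 at 2.61, 1.5001, 12.9, 1.17 and 9.15. In stroma1 and PC, these members passed the filter on low counts through the adult samples only. The summed level of the 12 proximal tubule markers in stroma1 was 160 and 180 at P0 and 632, 232 and 453 in adult samples, and in PC it was 183 and 182 at P0 and 357, 142 and 293 in adult samples. For Cyp24a1, Cyp2j5 and Cyp2d26 the lowest adult sample was P56 sample 1, which was also the lowest adult sample in these marker sums. In stroma2, where Cyp4b1, Cyp2j5 and Cyp4a14 rose, the sums were 236 and 238 at P0 and 279, 169 and 302 in adult samples. In CNT, Cyp2j5 was called at 9.11, 8.82, 35.4, 30.2 and 31.5, with marker sums of 180 and 213 at P0 and 247, 141 and 124 in adult samples. In endothelial cells, where Cyp2j5, Cyp4a14 and Cyp2d26 rose, the sums were 269.98 and 272 at P0 and 332, 238 and 276 in adult samples. The part of proximal tubule signal in these rises was not tested.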

How the data were processed

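Single-nucleus ATAC-seq was measured in 5 mouse kidney samples. Per the study's methods, the authors aligned reads to mm10 with Cell Ranger ATAC 1.1.0, clustered nuclei with SnapATAC and Harmony, called peaks with MACS2 on the pooled nuclei of each cluster, and deposited a binarized matrix of nuclei by 300755 peaks with the sample and cluster of each nucleus. The deposited values were treated as counts: each is 1 open call, whatever the number of fragments, so that a strongly open peak is understated and depth sets the chance of a call. How doublets were treated is not given in the sources used here, and no doublet caller was run. The single-cell RNA files used here hold no expression values and were left out.

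For each cell type in each sample with at least 20 nuclei, open calls were added up per peak and per gene window of GENCODE M21 gene body plus 2 kb upstream. Sums were tested with edgeR 4.0.16 (TMM, filterByExpr at a count of 10 and a total of 15, quasi-likelihood F test, Benjamini-Hochberg adjusted p under 0.05) over all protein-coding genes or all peaks, P0 (n = 2) against adult (n = 3). An exact permutation test of 2 against 3 samples cannot go below p = 0.2. PCT and PST were compared in adult samples with the sample as a block, and the difference of the stage effect by an interaction term, a test added after the data were seen. The SE is the log2 fold change divided by the root of F. The scripts were tested on simulated data. Bounds for genes at 0 use a floor of 3 calls over the group and cover counting error only.

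The members, gene groups and lists were chosen with earlier results of these data known. Values are given for the vitamin D genes, the 2 members with the highest mean in each group, those with the lowest p in each comparison and direction, members leading in 1 type in all samples, and the most open and start peaks of the leading genes, most by sample and some as means or counts. Promoter sequences are from RefSeq (59 of the 77 members matched) and peak sequences from mm10. The analysis used R 4.3.3, DESeq2 1.42.0 and Python 3.11.15. The alternatives tried were each sample left out, DESeq2 or its size factors, no filter on low counts, the replicate block, open peaks per nucleus with no scaling, equal numbers of nuclei, nuclei thinned to 1000 open peaks, P56 alone as adult, unshared peaks, peaks within 1 kb of the start, and, added after the data were seen, the P0 samples and P56 sample 1 only. One of the motifs and one of the partner genes in the design are not reported here.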

Additional observations from a re-analysis of the deposited data

Results flagged for a closer look

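The stage difference of Cyp51 was larger in PST than in PCT, by 0.94 on the log2 scale. It was picked out because the interaction term of edgeR passed its threshold (SE 0.17, adjusted p = 0.00711). In PCT Cyp51 was at 101, 102, 119, 91.9 and 117 CPM and in PST at 94.5, 99.6, 184, 184 and 228. The call was lost without P0 sample 1 (log2 0.89, adjusted p = 0.190) and without P0 sample 2 (log2 0.97, adjusted p = 0.152), and DESeq2 gave an adjusted p of 0.0104.

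The stage difference of Cyp2f2 was picked out by the same term, at -1.69 on the log2 scale (SE 0.35, adjusted p = 0.0172). It rose in PCT, while in PST the 3 adult samples lay below P0. The call was lost without P0 sample 1 (adjusted p = 0.209), without P0 sample 2 (adjusted p = 0.286) and with DESeq2 (adjusted p = 0.0510).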

How the results depend on the processing

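Leaving out each sample in turn gave 6 to 31 called members in PCT (22 with all samples), 0 to 12 in PST (10), 36 to 115 pairs of member and cell type in the other 11 types (79), 29 to 62 member peaks in PCT (66), 0 to 19 in PST (14), 26 members each time between PCT and PST (30) and 11 to 12 members leading in PCT or PST (11). The lowest counts between stages came without P0 sample 1 or 2, where the P0 group holds 1 sample. Thinning nuclei to 1000 open peaks left 9 members in PCT, 0 in PST (7 at an unadjusted p under 0.05 in edgeR), 16 pairs in other types, 10 peaks in PCT, 0 peaks in PST (1 at an unadjusted p under 0.05) and 6 leading members. Peaks within 1 kb of the start gave 13, 2 and 41. Equal numbers of nuclei gave 6 members and 9 peaks in PST and 41 pairs elsewhere. DESeq2 gave 50 pairs elsewhere and 9 peaks in PST, and no filter on low counts 127 and 32. The P0 samples with P56 sample 1 only, chosen after the data were seen and with 1 adult sample that has no spread of its own, gave 17 members in PST. Searching whole peaks raised the share of member peaks with a core from 4.40% to 8.79%, against 7.83% of all peaks. The cause was not tested.

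With the replicate block the counts were 24 members in PCT, 13 in PST, 71 pairs elsewhere, 64 peaks in PCT and 12 in PST. Same-numbered P0 and P56 samples had deviations correlated at 0.24 in PCT and 0.07 in PST, over only 2 pairs, so the numbers were not taken to pair them. Between PCT and PST the sample was the block, and with no replicate block 16 members were called.

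Over all called members, 265 of 317 alternative values kept direction and call in PCT, 100 of 133 in PST and 219 of 263 between PCT and PST. Of the members called in PCT, in PST or between them, Cyp2j13 (log2 -0.92 to 0.23) and Cyp4f17 (log2 -0.23 to 0.52) changed sign under an alternative, both between PCT and PST. Cyp4b1, Cyp2e1 and Cyp3a13 kept their call in PCT under every alternative run for them. PST rests on 83 and 112 nuclei at P0 and NP on 52 to 90 in each adult sample.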
